A study of Mus musculus with 2 samples.

Results

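Regulatory T cells were the 380 cells that the authors' deposited annotation labels as CD4 regulatory cells, out of 18860 colonic CD4 T cells, or 2.01% of all. The same 380 cells make up cluster 6 of the deposited clustering. They came from 12 Rag-/- mice, which cannot make T or B cells of their own, so every T cell in their colons descends from cells put in by transfer. The 6 KO-labelled mice received CD4+ T cells lacking BCL-6, and the 6 WT-labelled mice received naive or CD4+ CD45RBhigh CD25- T cells, a sort that leaves out the CD25-bearing fraction in which most regulatory cells lie. The design is the transfer model of colitis. Strain, age and sex of the mice, the driver of the deletion, the time after transfer and the sort applied to the KO donor cells are not stated in the labels. Cells were sorted as T cell receptor beta positive and CD4 positive, marked with a hashtag antibody for each mouse and read in 1 pooled library. The other 18480 cells fall into subsets labelled recirculating, cytotoxic, Th17 and cycling, and into clusters 1 and 3, called unnamed 1 and unnamed 3 here. KO1 to KO6 and WT1 to WT6 name the mice below, and the numbers are only names.

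Regulatory T cells restrain other T cells. Their identity rests on the transcription factor FOXP3, they take up interleukin 2 through the high-affinity receptor chain CD25 (Il2ra), and they act through CTLA-4, interleukin 10 and other surface or secreted molecules. In the gut they arise in the thymus or from naive T cells at the site, and Ikzf2 (Helios) is often, though not only, seen in those of thymic origin. A set of tissue regulatory cells carries KLRG1 and the interleukin 33 receptor ST2 (Il1rl1) and makes amphiregulin (Areg), a factor for epithelial repair. T cells that descend from 1 ancestor share their rearranged receptor, so a shared receptor sequence, or clonotype, marks cells of common descent.

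The receptor sequences of the largest regulatory clones are shown first, because the clonal results below turn on them. Each is the rearranged junction, printed 5′ to 3′ as DNA from the deposited annotation, with the first 9 and last 9 bases in lower case and the bases between them, where clones differ most, in capitals. Beta chains are encoded on chromosome 6 and alpha chains on chromosome 14 (GRCm38). Clone A held 19 regulatory cells of KO2, clones B and C 9 each of KO2, clone D 7 of KO4 and clone E 5 of KO2. Clone S, of WT5, is the largest clone with any regulatory cell and is shown for contrast: 1 of its 139 cells was regulatory, while 86 were cytotoxic and 24 cycling.
Clone A and clone E, beta: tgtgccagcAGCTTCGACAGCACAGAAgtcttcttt
Clone A, alpha: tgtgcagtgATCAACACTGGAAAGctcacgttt
Clone B and clone C, beta: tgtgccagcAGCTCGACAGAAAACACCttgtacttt
Clone B and clone C, alpha: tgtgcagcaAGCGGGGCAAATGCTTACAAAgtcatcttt
Clone B, second alpha: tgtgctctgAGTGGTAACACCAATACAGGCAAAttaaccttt
Clone D, beta: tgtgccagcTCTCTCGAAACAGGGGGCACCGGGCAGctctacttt
Clone D, alpha: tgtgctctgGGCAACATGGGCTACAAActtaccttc
Clone S, beta: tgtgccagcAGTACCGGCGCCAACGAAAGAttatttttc
Clone S, alpha: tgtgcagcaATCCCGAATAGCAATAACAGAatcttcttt
Clones A and E had the same beta junction, and clone E is shown by its beta junction alone. Clones B and C shared their beta junction and 1 alpha junction, and clone B had another alpha besides. The members of each pair carry separate clonotype names in the annotation, so the 4 KO2 clones shown rest on a pair of beta junctions. The opening 9 bases tgtgccagc, from the end of the variable segment, stood in 75.3% of the 174 regulatory beta junctions.

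Regulatory cells numbered 59, 83, 19, 21, 32 and 40 in KO1 to KO6 and 26, 13, 10, 26, 11 and 40 in WT1 to WT6. Expression was therefore compared over the 8 mice with 20 or more, KO1, KO2, KO4, KO5, KO6, WT1, WT4 and WT6, which hold 327 of the 380 cells. Sums over these 8 mice were shallow, at 65886 to 204440 unique molecular identifiers (UMIs), so a single UMI weighed 4.89 to 15.2 CPM, the count scaled to a common library total. The median regulatory cell had 2517.5 UMIs, inside the range of the other subsets (2164.5 to 5132.5). Between genotypes the per-mouse medians were 2535.7 ± 268 and 2701 ± 512 UMIs for KO and WT (SD, n = 5 and 3, exact permutation p = 0.607). No cell barcode was used more than once, and 3 regulatory cells had a deposited doublet score above 0.2.

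Bcl6 itself did not separate the genotypes in the direction of its deletion. Over all cells it stood at 69.1, 65.8, 91.3, 80.6, 88.8 and 91.1 CPM in KO1 to KO6, against 54.2, 48.4, 60.8, 56.2, 49.2 and 69.6 CPM in WT1 to WT6. In regulatory cells it was sparse, with 21, 16, 5, 2, 4 and 2 UMIs in KO1 to KO6 and 0, 1, 0, 0, 2 and 3 UMIs in WT1 to WT6. Reads start at the 5′ end of a transcript, and the extent of the deletion is not stated, so message upstream of it could still be counted and the Bcl6 counts cannot check the genotype labels. Genotype names below are those of the labels.

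The 5 markers, Foxp3, Ikzf2, Klrg1, Il2ra and Ctla4, were all higher in regulatory cells than in the remaining cells in each of the 8 mice. Because the clusters were made from these genes, marker levels are a description and carry no test. Foxp3 (X:7573644-7595245, GRCm38) stood at 408, 338, 425, 506 and 480.0 CPM in regulatory cells of KO1, KO2, KO4, KO5 and KO6 and at 472, 673 and 655 CPM in those of WT1, WT4 and WT6. In the other cells of the same mice it averaged 0.949 CPM, with no mouse above 2.27. Ikzf2 averaged 612 ± 115 against 18.7 ± 4.49 CPM, Klrg1 780.5 ± 296 against 12.0 ± 4.59, Il2ra 729 ± 212 against 157 ± 28.8 and Ctla4 2810.1 ± 478 against 812 ± 113 (SD, n = 8 mice). Il2ra and Ctla4 were the least selective of the 5, since cells of the cluster unnamed 1 and Th17 cells carried them as well.

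**Figure D1:**
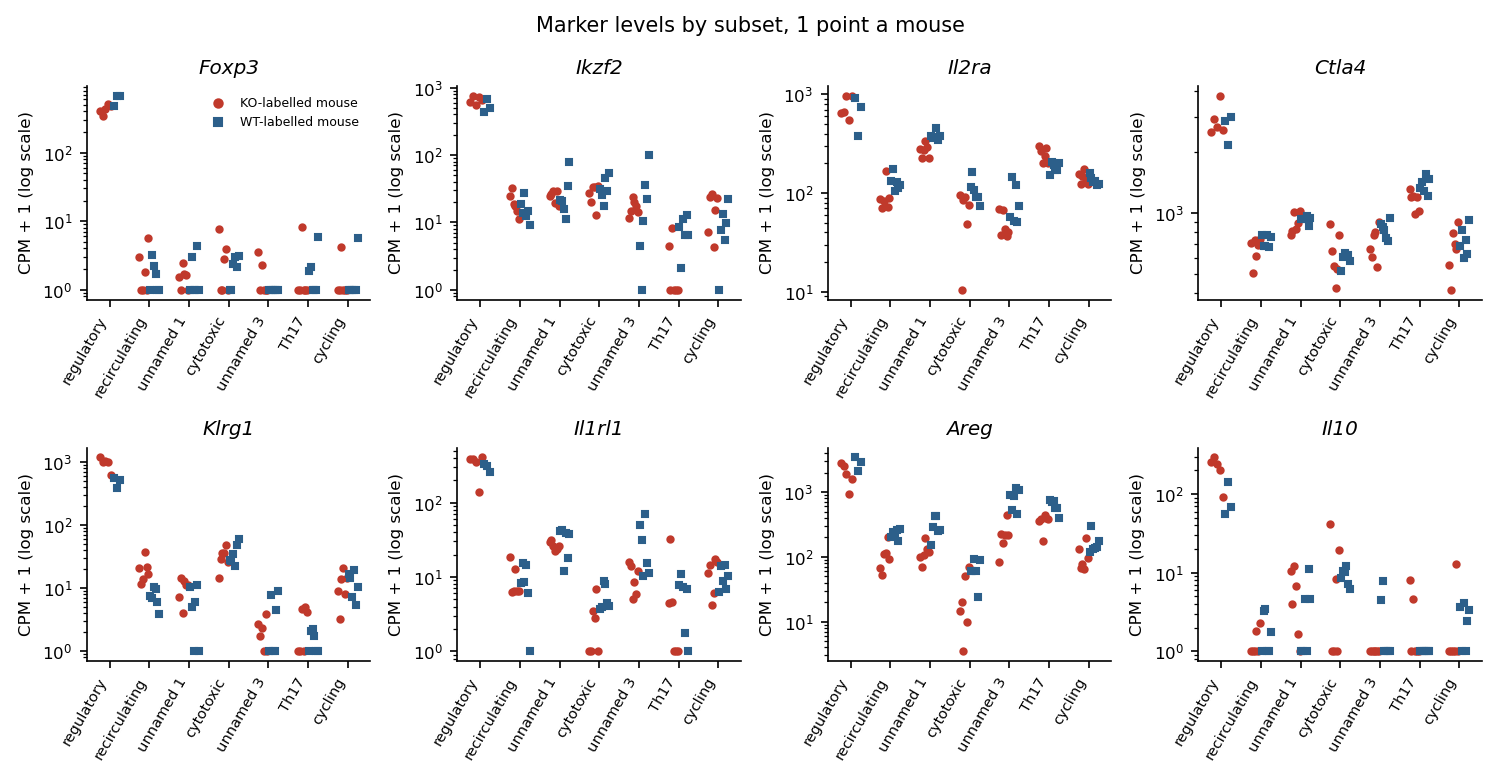
CPM plus 1 on a log axis for 8 genes, with 1 point for each mouse that has 20 or more cells of the subset (8 mice for regulatory cells, 12 for every other subset), KO-labelled mice as circles and WT-labelled mice as squares. Foxp3 sits between 338 and 673 CPM in regulatory cells and at or below 7.23 CPM in every mouse of every other subset. Ctla4 reaches 1556 CPM in Th17 cells, below the regulatory minimum of 2172. Il2ra and Areg overlap: Il2ra reaches 456 CPM in unnamed 1, against a regulatory minimum of 378. Areg reaches 1173 CPM in unnamed 3, against a regulatory minimum of 923.

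Most regulatory cells held FOXP3 message, and almost no other cell did. Of the 380, 242 had a Foxp3 UMI (63.7%), against 0.134% to 0.270% of cells in the other 6 subsets. After thinning every cell to 1500 UMIs, which left out 42 shallower regulatory cells, the share was 47.3% (95% Wilson interval 42.1 to 52.7), against 0.0369% in unnamed 3 to 0.181% in Th17 cells. Thinned shares for Ikzf2 were 61.8% against at most 3.25%, for Klrg1 54.7% against at most 4.23%, for Il1rl1 32.2% against at most 3.59% and for Il10 12.7% against at most 0.937%. Intervals cover counting error only. The less selective genes were Ctla4, at 90.5% against up to 75.8%, Il2ra, at 57.1% against up to 29.2%, and Areg, at 65.4% against up to 26.0%. Without thinning, a Foxp3 or Ikzf2 UMI was found in 341 regulatory cells (89.7%). Any of the 5 markers was found in 379, but Ctla4 alone was found in 55.6% to 90.5% of cells of the other subsets. Looked at from the other side, 282 cells of the whole table had a Foxp3 UMI and 40 of them lay outside the regulatory cluster, of which 7 had 2 or more UMIs and 6 also had Ikzf2.

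The cells were T cells by their defining genes, with all 9 T cell markers present and Cd8a, Trdc, Tcrg-C1 and Tcrg-C2 at 0 UMIs. Cd8b1, the other CD8 marker, had 10 UMIs, at up to 25.3 CPM in KO and 11.0 CPM in WT mice. B cell and antigen-presenting genes were higher than in other cells. The 3 B cell markers in the table, Cd79b, Ighm and Igkc, summed to 254 to 581 CPM in KO and 461 to 491 CPM in WT regulatory cells, against 9.81 to 32.1 CPM in the other cells, and Ighm UMIs lay in 166 of the 380 cells. Of the dendritic cell list, Cd74, H2-Ab1 and H2-Aa summed to 408 to 1075 CPM in KO and 294 to 483 CPM in WT, against 57.7 to 138, with Itgax at 0. The part of B or dendritic cells or their free RNA in these values was not tested. Macrophage, natural killer, mast, epithelial and endothelial lists each summed to at most 53.8 CPM in any mouse. The plasma cell list was Igkc alone, at up to 316 CPM (KO5), and no neutrophil, stromal or erythroid marker is in the table. The innate lymphoid list, which holds Klrg1, Areg and Il1rl1, summed to 2073 to 4349 CPM in KO and 2817 to 4409 in WT, against 151 to 398 in other cells.

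Beyond the markers, the genes highest over the other cells were those of regulatory identity, suppression and the tissue regulatory state. Across all 11971 genes, 4.1% were higher in regulatory cells in all 8 mice and 11.5% lower. Of the identity list 16 of 23 genes were higher and 1 (Ets1) lower in every mouse, with a median log2 ratio of 1.62, against -0.16 over all genes. That list includes the markers Foxp3, Ikzf2, Il2ra and Ctla4, so its count is not independent of them. Lrrc32 (GARP, which tethers latent TGF-beta) averaged 218 ± 106 against 0.611 CPM, Izumo1r (folate receptor 4) 579 ± 190.1 against 19.9 CPM, and Cd27, a costimulatory receptor, 146 ± 43.0 against 10.5 CPM. Tnfrsf9 (4-1BB) stood at 1898 ± 469 against 115 CPM. Flicr, a long noncoding RNA transcribed beside Foxp3, reached 60.5 ± 29.9 against 0.367 CPM. Ikzf4 (Eos) and Nrp1 (neuropilin 1), also tied to regulatory cells, were higher in all 8 mice but low, at 63.0 and 29.2 CPM.

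Of the 19 suppression genes in the table, 11 were higher in every mouse (median log2 ratio 1.51). Il10 averaged 168 ± 92.4 against 2.48 CPM, Itgb8, an integrin chain that activates TGF-beta, 67.6 ± 28.8 against 0.128 CPM, and Ebi3, a chain of interleukin 35, 167 ± 62.2 against 11.0 CPM. The cytolytic protease gene Gzmb was high in all cells but higher still in regulatory ones, at 5076 ± 687 against 839 CPM. Lgals3 (galectin 3) went the other way in all 8 mice, at 135 ± 75.1 against 503 CPM. Of the 27 effector and tissue genes, which include the marker Klrg1, 17 were higher and 1 (Rora) lower (median 1.05). Areg averaged 2279 ± 808 against 218 CPM and was highest elsewhere in unnamed 3, at 530.2. Il1rl1 averaged 320.4 ± 87.4 against 12.5, and Gata3, the transcription factor that drives ST2, 218 ± 49.1 against 52.8.

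Penk, the precursor of enkephalin peptides, varied among mice. It averaged 830.3 ± 413 CPM in regulatory cells and 58.5 ± 64.3 in the other cells, and ran between 252 CPM in WT4 and 1471 in KO1. The 25 genes with the largest ratios also included Upp1, Laptm4b, Arl5a, Neb, Bmyc, Wls, Snx9, Gda and Mmp9, at means of 56.7 to 506 CPM, together with the lymphoid homing receptor gene Ccr7 (629 ± 411, against at most 69.2 in the other cells of any mouse). Ccr7 ranged between 126 and 1250.4 CPM among mice. With 20 CPM added in place of 5 before the ratio was taken, 16 of the 25 stayed among the top 25.

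Th17 cytokine genes, type 1 and cytotoxic genes and cycling genes were lower. Il22 averaged 3.06 CPM against 459, Il17a 1.63 against 165, and Cxcr6, a receptor of tissue-resident effector cells, 65.0 ± 57.0 against 621. Of 14 Th17 genes none was higher and 9 were lower in all 8 mice (median log2 ratio -1.62), and Il17f, Il21 and Il23r had 0 UMIs in these sums. Of 22 type 1 and cytotoxic genes 11 were lower and 2 higher (median -1.71), with the chemokine gene Ccl5 at 372 ± 172 against 2618 CPM and Ifng at 234 ± 171 against 855. Of 18 cell cycle genes 13 were lower and none higher (median -1.93), Mki67 at 20.6 ± 12.8 against 119 CPM. Cycling cells were clustered apart in this annotation, so low cycle genes are part of how the regulatory cells were defined. Tcf7, a factor of naive and stem-like cells, was also low, at 8.01 ± 7.81 against 116 CPM. The 6 others among the 10 genes furthest below the rest were Serpinb1a, a protease inhibitor gene (29.5 ± 21.2 against 346 CPM), the phosphodiesterase genes Pde3b and Pde7a, Apol7e, and the cycling-linked Stmn1 and Hist1h2ae, the last 5 at 6.0 to 16.9 CPM.

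In the other lists the medians lay between -0.26 and 0.97. Of 20 interleukin 2 and STAT5 genes, which include the marker Il2ra, 8 were higher in every mouse (median 0.36), led by Socs2 at 336 ± 60.9 against 60.2. Of 15 stem-like genes 5 were higher (median -0.26), of 20 BCL6-related genes 4 (median 0.11), of 8 type 2 genes 5 (median 0.97) and of 18 TNF family and NF-kB genes 7 (median 0.27), with 1 lower in each of these lists except the last, which had 2. Of 18 interferon-stimulated genes 7 were higher and 1 lower (median 0.52), led by Ifi27l2a at 1671 ± 542 against 282. Of 12 follicular helper genes 2 were higher and 1 lower (median 0.05), of 18 early activation genes 3 higher and 4 lower (median -0.19), of 20 residence and migration genes 7 higher and 4 lower (median 0.37), and of 10 heat shock genes none in either direction (median 0.23).

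Regulatory cells rarely shared a clonotype with any other subset of the same mouse. Of the 380 cells 300 had a clonotype, in 200 clonotypes. In the 6 mice with 20 or more such cells, 2 of 50 cells shared in KO1 (4%), 5 of 71 in KO2 (7.04%), 0 of 28 in KO5 and 1 of 32 in KO6 (3.12%), with 5 of 20 in WT1 (25%) and 6 of 28 in WT6 (21.4%). The mean was 10.1% ± 10.5 for regulatory cells, against 59.3% ± 11.0 for unnamed 1, the lowest of the other subsets, and 78.3% ± 8.32 for cycling cells, the highest. The highest regulatory value lay below the lowest of any other subset, 46.1%. The share was lower than that of each of the 6 other subsets in 6 of 6 mice (exact sign-flip test within mice, two-sided p = 0.0312, adjusted p = 0.0312 over the 6 subsets, the smallest p this test can give). With the 10 mice that have 10 or more clonotyped cells, it was 15.9% ± 14.7 and lower in 10 of 10 (exact p = 0.00195).

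The gap was of the same size when every mouse had the same number of other cells. With the other cells of each mouse drawn together to 1220, the number in the mouse with fewest, the other subsets averaged 65.3%. The 6 mice were already close in that number, so the draw could move the gap only slightly. The difference was -55.2 percentage points, against -56.3 with all cells. Subsets were not drawn to the size of the regulatory one. The pair rate, which is the share of all pairs of 1 cell of a subset and 1 cell of the rest that carry the same clonotype, does not grow with subset size, and was 437 ± 807 ppm for regulatory cells and 9056 to 14793 ppm for the 6 others (exact sign-flip p = 0.0312 for each). Matching on the beta junction alone gave 16.5% ± 13.6 against 75.6% ± 5.17 for the mean of the other subsets. These p-values are the smallest the test can give, reached when every mouse differs in the same direction, whatever the sizes of the differences. Donors of the transferred cells do not enter them.

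**Figure D2:**
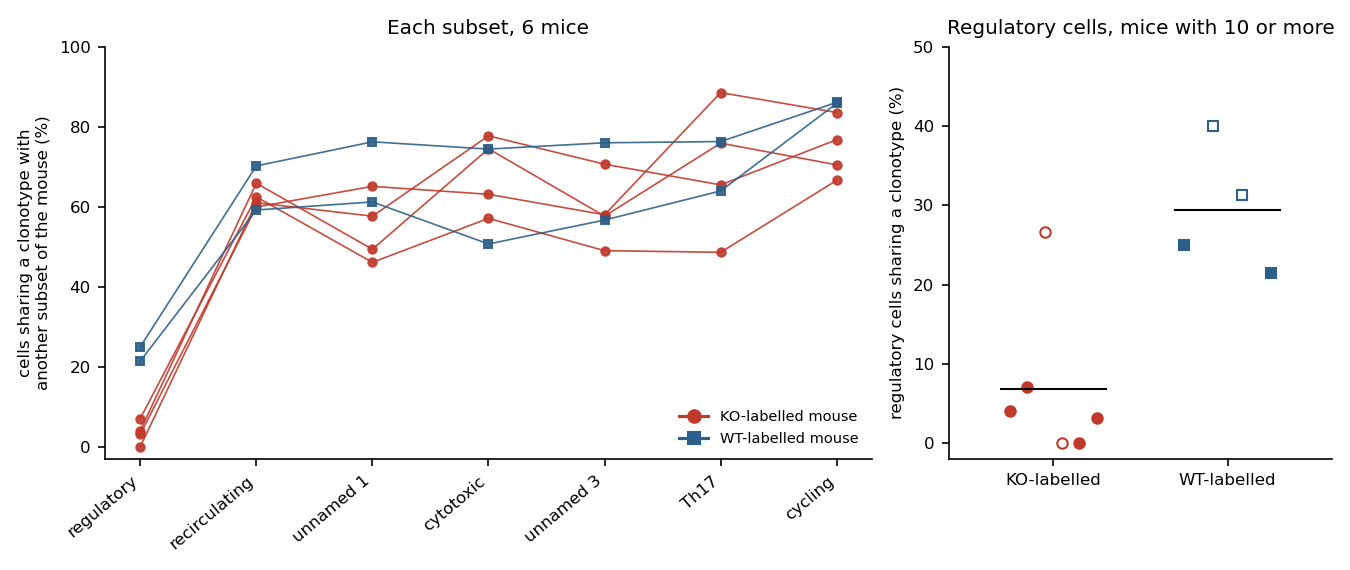
Left, the percent of clonotyped cells of each subset that share a clonotype with another subset, with 1 line for each of the 6 mice with 20 or more clonotyped regulatory cells: all 6 lines start at or below 25% for regulatory cells and lie at or above 46.1% everywhere else. Right, the same percent for regulatory cells of the 10 mice with 10 or more, filled where there were 20 or more cells and open otherwise, with group means as lines (6.81% for KO-labelled and 29.4% for WT-labelled mice).

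The sharing that did occur was by single regulatory cells. Of the 31 shared clonotypes (15.5% of the 200), 30 held exactly 1 regulatory cell. Most clonotypes did so, shared or not, since only 43 of the 200 held 2 or more. The 31 shared clonotypes held 294 cells of other subsets in all, a large part of them in clone S, with 139 cells. Shared clonotypes reached Th17 cells in 17 cases, recirculating cells in 15, cytotoxic cells in 14 and cycling cells in 13. Of 43 clonotypes with 2 or more regulatory cells, only clone E had a cell elsewhere, a single cell of unnamed 3. No regulatory clonotype occurred in more than 1 mouse, and of the 174 regulatory beta junctions 3 were also seen in another mouse, never in a regulatory cell there. Of the 40 cells with Foxp3 outside the cluster 30 had a clonotype, and 2 of them belonged to a clone with regulatory members.

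**Figure D3:**
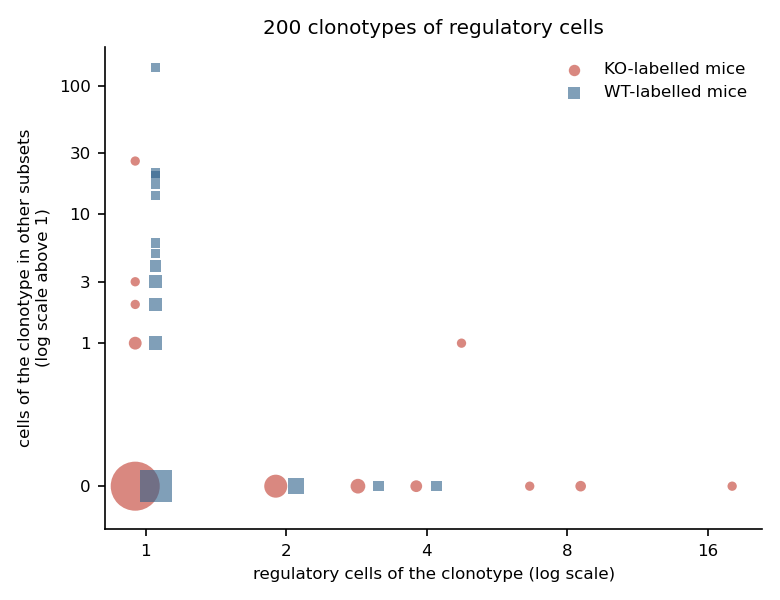
Each of the 200 clonotypes by its number of regulatory cells (log axis) and its number of cells in other subsets (log axis above 1), KO-labelled mice as circles set slightly left and WT-labelled mice as squares set slightly right, with larger symbols where clonotypes coincide. The points lie along the axes: clones of 4 or more regulatory cells have at most 1 cell elsewhere, and the clones with many cells elsewhere have 1 regulatory cell.

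Regulatory cells were clonally expanded among themselves, and the share of cells in clones sized within the subset did not detectably differ from the other subsets. Counting only cells of the subset, 47.8% ± 19.2 of regulatory cells and 46.7% ± 11.2 of cells averaged over the other subsets were in clones of 2 or more (n = 6 mice, exact sign-flip p = 0.969). That share grows with the number of cells, and regulatory cells were fewer than those of most other subsets. The rate of same-clonotype pairs within a subset does not grow so, and was not tested. In regulatory cells it was 16327, 108249, 29101, 10081, 63158 and 13228 ppm in KO1, KO2, KO5, KO6, WT1 and WT6. It was the highest of all subsets in KO2 and WT6, and not in KO1, KO5, KO6 or WT1. Counting all cells of the mouse, the shares were 56.7% ± 19.8 and 72.8% ± 6.0 (lower in 5 of 6 mice, exact p = 0.125). KO2 was the exception, with 84.5% of its regulatory cells in such clones and 26.8% in clone A alone. Over the 10 mice with 10 or more cells the difference was -20.0 points (exact p = 0.0137).

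Sharing was lower in every KO-labelled mouse with 20 or more clonotyped cells than in both WT-labelled ones, in a design too small for its test to pass. The shares were 3.54% ± 2.90 for KO and 23.2% ± 2.53 for WT (SD, n = 4 and 2), and the groups did not overlap (exact permutation p = 0.0667, the smallest p of this design). Over the 10 mice with 10 or more cells they were 6.81% ± 10.1 for KO and 29.4% ± 8.14 for WT (n = 6 and 4, exact permutation p = 0.0190), and here KO3, at 26.7%, lay inside the WT range. The pair rate of the same 10 mice, 276 ± 599 ppm for KO and 1283 ± 1057 ppm for WT, did not pass (exact permutation p = 0.0619). Pooled over mice, 12 of 212 KO cells shared, 5 of them clone E, and 23 of 88 WT cells. By beta junction alone the difference was smaller, 13.5% for KO against 22.5% for WT (n = 4 and 2, exact permutation p = 0.533). The share in clones of 2 or more was 52.0% ± 22.6 for KO and 66.1% ± 12.6 for WT (exact permutation p = 0.533). Sized within regulatory cells alone, the direction turned, at 50.3% ± 23.6 for KO and 42.9% ± 10.1 for WT (exact permutation p = 0.867).

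Regulatory cells that shared a clonotype are described here by pooled values without a test, and 23 of the 35 come from WT mice. A Foxp3 or Ikzf2 UMI was present in 32 of the 35 shared cells (91.4%), 92.0% of 138 cells in private clones of 2 or more and 89.8% of 127 private single cells. Ikzf2 alone was seen in 57.1% of shared cells, 77.5% of private clone cells and 74.8% of private single cells. Foxp3 pooled to 544, 430.3 and 473 CPM in these classes. Klrg1 stood at 371 CPM in shared cells, against 1038 in private clones and 667 in private single cells. Within WT mice that gap was small, at 411 CPM in shared cells and 456 in the others, and within KO mice it was 287 in 12 shared cells and 952 in the others. Ccr7 stood at 154, against 899 and 750.1, with UMIs in 3 of the shared cells, and Cd27 at 45.3, against 179.7 and 151. Tmem176b, a membrane protein gene of Th17 cells, was 462 CPM in shared cells, against 27.8 and 40.3. Within WT mice it was 596 CPM in 23 shared cells and 78.8 in the 103 others. Within KO mice it was 172 CPM in 12 shared cells, where it rests on 2 cells, and 25.5 in the 242 others.

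Clones as named in the annotation differed from one another in pooled values, also where they shared a beta junction. Whether A and E, or B and C, are each 1 clone was not tested. No Il10 UMI was found in the 24 cells of clones A and E, which share a beta junction, although Areg there reached 3861 CPM and Ikzf2 1123 CPM. Clones B and C, the other such pair of the same mouse, had Il10 at 459.6 CPM in B and 237 in C. They differed between themselves in Klrg1, at 2022 CPM in B and 711 in C, and in Areg, at 1348 in B and 3731 in C. Clone A, at 587 Klrg1 and 3671 Areg CPM, was closer to C than B was. Clone D had Il10 at 685 and Klrg1 at 1826 CPM. Penk spanned 0 CPM in a KO1 clone of 4 cells to 4941 CPM in a WT1 clone of 4 cells. These clones hold 4 to 19 cells each, their cells are not replicates, and a mean CPM of a mouse with 1 large clone, as in KO2, leans on that clone.

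Regulatory cells made up 3.44%, 5.06%, 1.22%, 1.49%, 1.84% and 2.43% of the CD4 T cells of KO1 to KO6, against 1.56%, 0.855%, 0.687%, 1.76%, 0.752% and 2.55% of those of WT1 to WT6. KO1 and KO2 were the highest of all, and the other KO mice lay within the WT range. The means were 2.58% ± 1.45 for KO and 1.36% ± 0.734 for WT (SD, n = 6 each), which did not pass (exact permutation p = 0.0866). Without KO2 the difference of 1.22 points dropped to 0.724.

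Between genotypes, regulatory cells of KO-labelled mice had more Plac8, Camk2n1 and Klrg1 and less Tmem176b, Cxcr4, Txnip, Il7r, Ltb and Hsp90ab1. These 9 genes were the ones called out of 1754 tested, or 0.513% (0.171% higher, 0.342% lower), in edgeR's quasi-likelihood test with Benjamini-Hochberg adjustment over 5 KO and 3 WT mice, and 199 genes had an unadjusted p under 0.05. None of the remaining genes passed, among them Foxp3, Ikzf2, Il2ra and Ctla4. Genotypes did not overlap in 6.84% of all tested genes, and in 8 of the 9. The largest fold change of the 9 was in Tmem176b (6:48833818-48841496, GRCm38). It stood at 5.91, 19.6, 60.7, 0 and 56.9 CPM in KO1, KO2, KO4, KO5 and KO6, against 274, 140.2 and 202 CPM in WT1, WT4 and WT6. Every KO mouse lay below every WT mouse. In edgeR's test its log2 fold change was -3.02 ± 0.49 (± SE here and below, adjusted p = 0.00994). Without cells of shared clonotypes the gene was too low to be tested, and pooled over all 12 mice it stood at 25.5 CPM in KO and 78.8 in WT. In that setting 4 genes were called, among them Il7r, Camk2n1 and Ltb.

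Plac8 (5:100553725-100572245), which encodes a small cysteine-rich protein of lymphoid and myeloid cells, rose. It stood at 443, 269, 637, 329 and 415 CPM in the 5 KO mice, against 132, 98.1 and 154 in the 3 WT mice, without overlap. The log2 fold change was 1.59 ± 0.30 in edgeR's test (adjusted p = 0.0296). Camk2n1, an inhibitor of the kinase CaMKII, rose by 1.15 ± 0.23, to 273 to 360.4 CPM in KO, against 135 to 143 in WT (adjusted p = 0.0296). Klrg1 (6:122270596-122282882), the inhibitory receptor that served as a marker of the cluster, stood at 1182, 978, 1032, 986 and 618 CPM in KO, against 548, 378 and 520.4 in WT. All 5 KO mice lay above the WT mice, KO6 closest to them. The log2 fold change was 0.95 ± 0.21 (edgeR adjusted p = 0.0404). Without cells of shared clonotypes its log2 fold change was 0.92 (edgeR, adjusted p = 0.136).

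The genes that fell include receptors and ligands of lymphoid survival and migration. Il7r, the interleukin 7 receptor chain, stood at 319, 474, 471, 544 and 521 CPM in KO mice, against 1031, 785 and 809 in WT mice, well apart (log2 fold change -0.96 ± 0.19, edgeR adjusted p = 0.0296). Cxcr4, the receptor for CXCL12, stood at 35.5, 39.1, 91.1, 63.2 and 56.9 CPM in KO, against 175, 238 and 125 in WT (-1.79 ± 0.37, edgeR adjusted p = 0.0296). Ltb, the membrane ligand lymphotoxin beta, was 582 to 885 CPM in KO, against 995 to 1546 in WT (-0.82 ± 0.17, edgeR adjusted p = 0.0296). In none of these did the genotypes overlap. The chaperone gene Hsp90ab1 stood at 1767, 1790.3, 2474, 1858 and 1773 CPM in KO, against 2567, 3153 and 2833 in WT (-0.60 ± 0.13, edgeR adjusted p = 0.0404), with KO4 nearly at the WT level. Txnip, a brake on glucose uptake, was named after its values were seen, since its genotypes overlap: WT1, at 175 CPM, lay among the KO mice (88.6 to 265), below WT4 and WT6 at 561 and 501 (-1.48 ± 0.33, edgeR adjusted p = 0.0446).

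**Figure D4:**
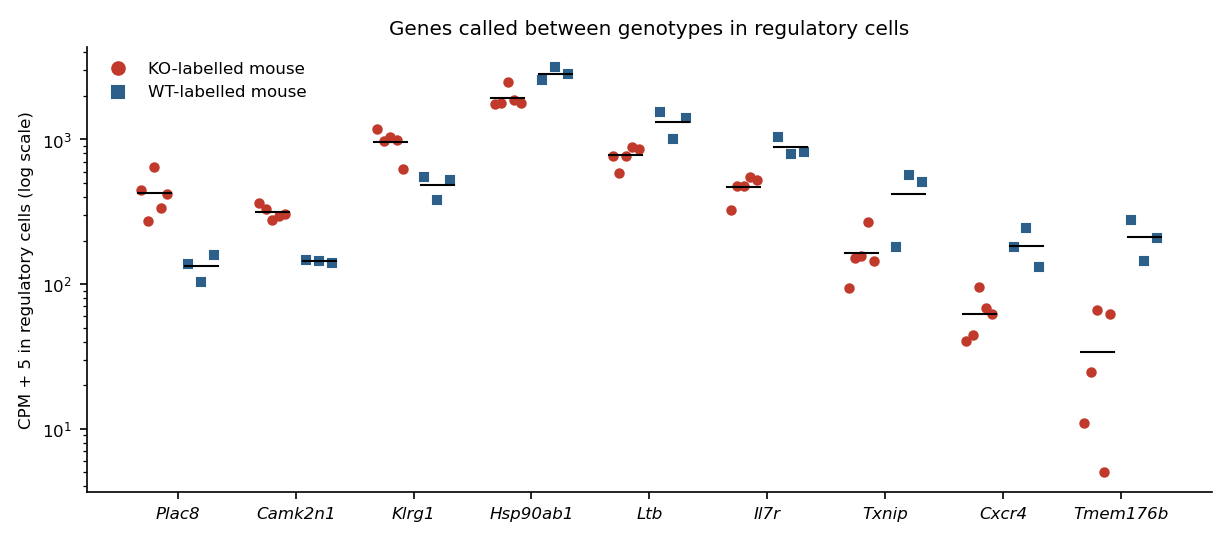
CPM plus 5 on a log axis in regulatory cells for the 9 called genes, ordered by fold change, with 1 point for each of 5 KO-labelled mice (circles, left) and 3 WT-labelled mice (squares, right) and group means as lines. The groups are separate for 8 genes, and for Txnip 1 WT-labelled mouse lies among the KO-labelled ones.

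The number of calls rested on few mice. Without KO1 no gene was called, without KO2 1 (Plac8), and without WT6 1 other gene, while without WT4 there were 6 and without KO4 or WT1 12 each. Without both KO1 and KO2 none passed, and with 20 cells drawn per mouse none passed. All 9 genes kept their sign in every setting in which they were tested. Where genotypes do not overlap, leaving mice out could hardly turn the sign, so kept signs are no separate evidence.

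Among the gene lists, the heat shock genes leaned furthest. All 10 were tested and all 10 had negative fold changes in KO, with a median of -0.87 against 0.00 over all 1754 genes, but only Hsp90ab1 passed. Hspa8 stood at 2149 to 3870.3 CPM in KO, against 3238 to 5298 in WT (-0.58 ± 0.17, edgeR adjusted p = 0.241), with overlap. The inducible Hspa1b varied widely, at 215 to 2398 CPM in KO, against 395 to 5045 in WT. Of 6 stem-like genes tested Il7r passed (median -0.42), as it did in the interleukin 2 and STAT5 list of 17 (median -0.02), and of 11 residence genes Cxcr4 (median -0.22). Of 3 Th17 genes tested Tmem176b passed (median 0.33), and of 20 effector and tissue genes Klrg1 (median 0.17).

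In the remaining lists no gene passed. The identity list had 18 tested genes and a median of 0.08. Foxp3 was 431 ± 65.7 CPM in KO and 599.9 ± 111 in WT (log2 -0.52 ± 0.19, edgeR adjusted p = 0.328), and Ikzf2 was 659 ± 87.5 in KO and 534 ± 126 in WT (0.30 ± 0.19, edgeR adjusted p = 0.576). The suppression list had 12 tested genes and a median of 0.32. Il10 had the smallest p there, at 254, 293, 243, 202 and 89.5 CPM in KO, against 54.8, 140.2 and 67.5 in WT (1.38 ± 0.40, edgeR adjusted p = 0.241), with KO6 inside the WT range. Areg was 1946 ± 740.0 in KO and 2835 ± 671 in WT (-0.55 ± 0.23, edgeR adjusted p = 0.403). Il2rb, the shared receptor chain for interleukins 2 and 15, was 531 ± 41.8 in KO and 773 ± 186 in WT (-0.58 ± 0.18, edgeR adjusted p = 0.251), and Id2, a factor of effector cells, 885 ± 296 in KO and 546 ± 25 in WT (0.71 ± 0.23, edgeR adjusted p = 0.263). Genotypes did not overlap, without a call, in the interferon-inducible Ifi27l2a, at 1955 ± 467 in KO and 1197 ± 227 in WT (0.65 ± 0.18, edgeR adjusted p = 0.161). The same held for Ccl5, at 272 ± 135 in KO and 539 ± 20.4 in WT (-1.01 ± 0.27, edgeR adjusted p = 0.161). Medians were 0.28 for 12 BCL6-related genes, 0.27 for 5 type 2 genes, 0.11 for 7 type 1 and cytotoxic genes, 0.18 for 17 TNF family and NF-kB genes and 0.01 both for 9 interferon-stimulated and for 13 early activation genes. Among follicular helper genes 3 were high enough to be tested (median 0.08), and among cell cycle genes 1 (0.30).

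Whether a genotype effect in regulatory cells differed from that in another subset was tested against recirculating and Th17 cells of the same 8 mice, with the mouse as a block. The 2 comparisons share the regulatory sums. Against Th17 cells 10 of 3753 genes were called (0.266%; 0.107% with a higher and 0.16% with a lower effect in regulatory cells), and against recirculating cells 4 of 4945 (0.0809%; 0.0202% and 0.0607%). The clearest was Gzmb, which rose in KO Th17 cells and not detectably in regulatory cells, where it was already high. In regulatory cells it stood at 4838 to 6447 CPM in KO and 4404 to 4681 in WT, without overlap and without a call (log2 0.24 ± 0.10, edgeR adjusted p = 0.403). In Th17 cells it stood at 1291 to 1637 CPM in KO and 264 to 679 in WT (1.68 ± 0.20, edgeR adjusted p = 0.000316). The effects differed by -1.53 ± 0.18 (edgeR quasi-likelihood interaction, adjusted p = 6.69e-06).

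Capg, which encodes an actin-capping protein, was likewise called in Th17 cells (1.12 ± 0.15, edgeR adjusted p = 0.0013) and not in regulatory cells. It stood at 1011 to 1806 CPM in KO and 1359 to 1437 in WT regulatory cells, against 702 to 1036 in KO and 285 to 460.3 in WT Th17 cells (difference of effects -1.25 ± 0.18, edgeR adjusted p = 0.00033). Against recirculating cells, at 399.7 ± 62.4 CPM in KO and 214 ± 29.3 in WT, the difference was -0.94 ± 0.18 (edgeR adjusted p = 0.0202). Tmem176b had a larger negative effect in regulatory than in Th17 cells (-2.56 ± 0.46, edgeR adjusted p = 0.00421), where it stood at 502 to 898 CPM in KO and 797 to 915 in WT. The same held against recirculating cells, at 131 to 250.0 in KO and 293 to 442 in WT (-2.05 ± 0.43, edgeR adjusted p = 0.0480).

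Ccr8, a chemokine receptor of tissue regulatory and type 2 cells, was not called in regulatory cells (215 to 367 CPM in KO, 106 to 362 in WT) but fell in KO Th17 cells (-1.47 ± 0.22, edgeR adjusted p = 0.00178), at 35.9 to 60.6 CPM in KO and 104 to 159.8 in WT (difference of effects 1.78 ± 0.33, edgeR adjusted p = 0.00536). Fam46a (Tent5a), a poly(A) polymerase gene, stood at 822 to 1001 CPM in KO and 505 to 636 in WT regulatory cells, and at 23.5 to 149.8 in KO and 103 to 156 in WT Th17 cells (1.71 ± 0.34, edgeR adjusted p = 0.0110). Penk differed against recirculating cells (2.71 ± 0.48, edgeR adjusted p = 0.0132), where it was 0 to 5.14 CPM in KO and 6.41 to 28.4 in WT. With regulatory Penk at 341 to 1471 CPM in KO and 252 to 1174 in WT, that difference rests on recirculating values near 0, and without WT1 its adjusted p was 0.224. The other called genes were Trbv2 and Trbv13-1, which are receptor segments, and Txnip, Penk and Ccl1, whose within-mouse differences overlapped between genotypes.

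**Figure D5:**
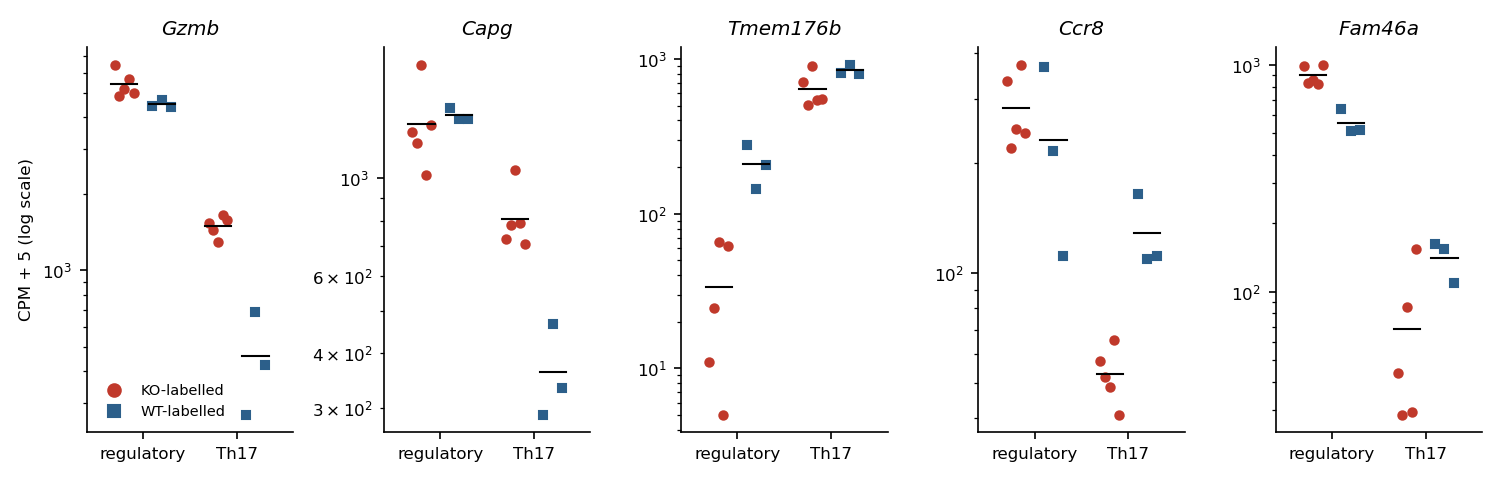
CPM plus 5 on log axes, which differ between panels, for the 5 genes named against Th17 cells, with regulatory cells left and Th17 cells right in each panel, KO-labelled mice as circles and WT-labelled mice as squares, and group means as lines. For Gzmb the regulatory points lie at 4838 to 6447 CPM in KO and 4404 to 4681 in WT, close together but without overlap. Th17 cells split further, into 1291 to 1637 in KO and 264 to 679 in WT. For Tmem176b the split is in the regulatory cells.

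Gzmb and Capg, against Th17 cells, kept their call with each mouse left out in turn, from 3 to 14 calls in all against Th17 and 1 to 10 against recirculating cells. With limma on differences within mice neither passed (adjusted p = 0.654 for both), and that test called 1 gene in each comparison and none of those above.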

How the data were processed

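Cell Ranger 3.1.0, Seurat 3.1.5 and the builds GRCm38 and mm10 are named in the submitters' processing notes. The table the authors deposited holds raw UMI counts of 11971 genes in 18860 cells. Their deposited annotation gives each cell's mouse, genotype, subset and clonotype, with its doublet score and mitochondrial percent. How cells were filtered was not stated. The members, gene lists and tests were chosen with earlier results of these data known.

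For mice with 20 or more regulatory cells, counts were summed by mouse and subset. Two-sided quasi-likelihood tests used edgeR 4.0.16 (R 4.3.3) with TMM scaling and filterByExpr, at an adjusted p under 0.05. DESeq2 1.42.0 and limma 3.58.1 were alternatives. The standard error is the fold change divided by the square root of F. In simulated counts for the genotype test, 74.3% of 2-fold and 100% of 4-fold changes and 0.353% of unchanged genes were called. For regulatory minus recirculating cells, simulated over 1754 genes, these were 43.7%, 99.1% and 0.45%, and the test against Th17 cells was not simulated. Changed genes were drawn from the more abundant ones, all genes had the same dispersion, and no effect of mouse was simulated. The rates hold for those settings only. Ratios to other cells add 5 CPM to both. Thinning used 1500 UMIs.

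Named genes were the 5 markers, Bcl6, the 25 highest and 10 lowest ratios with 50 CPM or more, called genes without overlap whose mean log2 CPM was at least 5, and list members with the smallest p. Receptor segments, immunoglobulin genes and unnamed gene models were passed over, and Ighm was given only as a marker. Some genes of these lists are not reported here.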

Additional observations from a re-analysis of the deposited data

Results flagged for a closer look

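Among 27 groups of mice checked for a value standing apart, 1 did. Hsp90ab1 in regulatory cells of KO4 was 2474 CPM, against 1767 to 1858 CPM in the 4 other KO mice and 2567 to 3153 CPM in WT mice, and chance alone gives about 1 in 20 such groups.

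In 8 cases the genotype effect in regulatory cells differed from that in another subset by the interaction test. Against recirculating cells the log2 differences were 2.71 for Penk, -0.94 for Capg and -2.05 for Tmem176b. Against Th17 cells they were -1.53 for Gzmb, -1.25 for Capg, -2.56 for Tmem176b, 1.78 for Ccr8 and 1.71 for Fam46a. Of these genes only Tmem176b had a called genotype difference within regulatory cells.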

How the results depend on the processing

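Only the share of cells in clones of 2 or more changed direction, when clones were sized within the subset. KO minus WT was then 7.40 points, against -14.0 points with all cells, and neither passed. Regulatory cells then differed by 1.11 points from the mean of the other subsets, by 2.48 from recirculating, 0.0289 from unnamed 1, 0.146 from cytotoxic and 8.28 from cycling cells, none passing. The 9 genotype calls in regulatory cells were 44 without a filter on low counts, 2 with mice of 10 or more cells and 0 with 20 cells per mouse. With only Foxp3 or Ikzf2 positive cells they were 3, but that setting took in all 12 mice, so the mice changed along with the cells. They were 4 without cells of shared clonotypes and 0 without KO1 and KO2 together. These last 2 settings, and matching by beta junction, were chosen after seeing the data. With 1 mouse left out the calls were 0 to 12. Against recirculating cells the 4 calls became 16 without a filter, 1 with limma and 1 to 10 with 1 mouse left out. Against Th17 cells the 10 became 27, 1 and 3 to 14. With mice of 10 or more cells, sharing differed between KO and WT by -22.6 points and clones of 2 or more from the mean of the other subsets by -20.0 points, both passing, while the KO minus WT pair rate did not pass (exact permutation p = 0.0619). With 1 mouse left out, the sharing difference from other subsets was -59.2 to -53.9 points and the pair rate difference -12059 to -6658 ppm, where 5 mice cannot reach p under 0.0625. The KO minus WT difference in the share of CD4 cells was 0.724 to 1.49 points, and it passed without KO3 or WT6. Of the 25 named higher genes 16 remained with 20 CPM added. Foxp3 was seen in 19.2% of regulatory cells at 500 UMIs and 63.7% unthinned. The causes were not tested. No paired analysis was possible because the mouse numbers are only names and the genotypes share none in the labels. Counts of 10 to 83 cells per mouse limit all genotype comparisons, and 2 WT mice those of clonotypes.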
